A study of Mus musculus with 26 samples.

Results

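Lin-Sca-1+c-Kit+ (LSK) bone marrow cells, the population that holds the leukemic stem cells of this mouse model of chronic myeloid leukemia (CML), were compared between 2 kinds of Spred1 knockout. In the EC KO mice the deletion is in endothelial cells, and in the global KO mice it is throughout the body. The EC KO group (Spred1ECΔ/ΔSCLtTA/BCR-ABL) had 5 libraries and the global KO group 6, so that 11 of the 26 libraries of the series enter the comparison itself. The HSC KO group (Spred1HSCΔ/ΔSCLtTA/BCR-ABL, 5 libraries) and the Spred1 wt group (5 libraries) were set beside them, and the HSC wt group (5 libraries) served mainly to estimate the spread. Every mouse carried the SCLtTA/BCR-ABL transgenes, in which BCR-ABL is switched on in cells that use the SCL control element, and every library is labelled C57BL/6. The HSC groups had received 7 doses of 250 μg poly(I:C), 1 dose every 2 days, to activate Mx1-cre, a driver that recombines in blood-forming cells but also in other cells that respond to interferon. No poly(I:C) is stated for the EC KO, global KO or Spred1 wt mice. The labels name neither the Cre that acts in endothelial cells nor the kind of global allele, and give no ages. The protocol counts 5 mice per EC and HSC group, and says nothing of the mice behind the global KO and Spred1 wt libraries, so p-values measure the spread between libraries. LSK cells of EC wt mice, the matched wild type of the EC line, were not analysed here.

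SPRED1 is a membrane-bound inhibitor of RAS to ERK signaling. It brings neurofibromin, the RAS GTPase-activating protein encoded by Nf1, to the plasma membrane, and its loss in people causes Legius syndrome. BCR-ABL signals through RAS, PI3K and STAT5, and leukemic LSK cells stay in contact with marrow endothelial cells, which supply the KIT ligand, integrin ligands and other niche signals. In the EC KO mice the deletion is meant for the endothelium, and the profiled LSK cells are its neighbors; in the global KO mice both carry it.

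The libraries held 18487602 to 24114819 counted reads in EC KO and 16010404 to 20399062 in global KO. Genes of the gated population were abundant, with Kit at 344 to 622 CPM (read counts scaled to the size of the library) and Cd34 at 709.96 to 767 CPM in EC KO, against 701 to 1080.2 and 810.2 to 963 CPM in global KO. Xist was above 500 CPM in EC KO replicates 1 and 2 and under 1 CPM in the other 3 EC KO and all 6 global KO libraries, which carried Y-linked reads instead, so sex was uneven between the groups. The same 2 EC KO libraries had the mast cell protease Cma1 at 642 and 856 CPM, against 5.84 to 14.7 CPM in the other 3. Calls were therefore repeated on the Y-positive libraries alone. The median log2 difference between EC KO and global KO also moved with gene length, as described at the end, and calls were repeated with that trend removed.

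Spred1 mRNA in LSK cells separated the 2 knockouts. It stood at 84.0, 80.9, 58.0, 63.0 and 66.0 CPM in the EC KO libraries, and at 22.4 at the lowest, 33.1 at the median and 44.5 CPM at the highest in the global KO libraries. Every EC KO library lay above every global KO library (log2 fold change 1.11 ± 0.14, SE, as below, edgeR adjusted p = 3.04e-05). That is 2.16-fold. The EC KO level was not that of Spred1 wt, where the 5 libraries held 92.4 to 148 CPM. All 5 EC KO libraries lay below all Spred1 wt libraries (log2 fold change -0.70 ± 0.15, edgeR adjusted p = 0.00527), although with the mast cell genes as a covariate this adjusted p was 0.0687. Global KO was lower still against Spred1 wt (log2 fold change -1.81 ± 0.15, edgeR adjusted p = 2.86e-08), and HSC KO, at 28.8 to 47.4 CPM, lay with it. These are reads over the whole gene (chr2:117121071-117182277, mm10), and the labels do not say which exons are deleted, so a knockout library need not reach 0. In RNA from sorted bulk cells, fewer cells that express a gene and less RNA per cell cannot be told apart.

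Mir674, a microRNA gene 2850 bases beyond the end of Spred1 (chr2:117185127-117185226, mm10), went the other way. Its RefSeq mature sequences (GRCm38.p6) are shown because the gene differed between the knockouts beside Spred1 itself, with the seed, bases 2 to 8, in capitals.
mmu-miR-674-5p: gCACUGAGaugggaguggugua
mmu-miR-674-3p: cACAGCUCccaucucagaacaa
The gene was read at 0.251, 0.235, 0.195, 0.214 and 0.210 CPM in EC KO and at 0.302 at the lowest, 0.627 at the median and 1.24 CPM at the highest in global KO. All EC KO values lay below all global KO values (log2 fold change -1.65 ± 0.43, edgeR adjusted p = 0.018). These are few reads, from 4 to 6 per EC KO library and from 5 to 25 per global KO library, and they show transcription over the locus, not the level of the mature microRNA. In Spred1 wt the gene was at 0 to 0.130 CPM, below both knockouts (EC KO over Spred1 wt, edgeR adjusted p = 0.0265; global KO over Spred1 wt, 0.00077). The call between EC KO and global KO was lost without EC KO replicate 3 or without global KO replicate 4, with an adjusted p of at most 0.0555, and in the Y-positive libraries. Egfl7, the endothelial secreted factor whose intron holds miR-126, was at 47.1 to 79.3 CPM in EC KO and 47.4 to 88.6 CPM in global KO, with overlapping groups (log2 fold change -0.12 ± 0.19, edgeR adjusted p = 0.75).

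**Figure D1:**
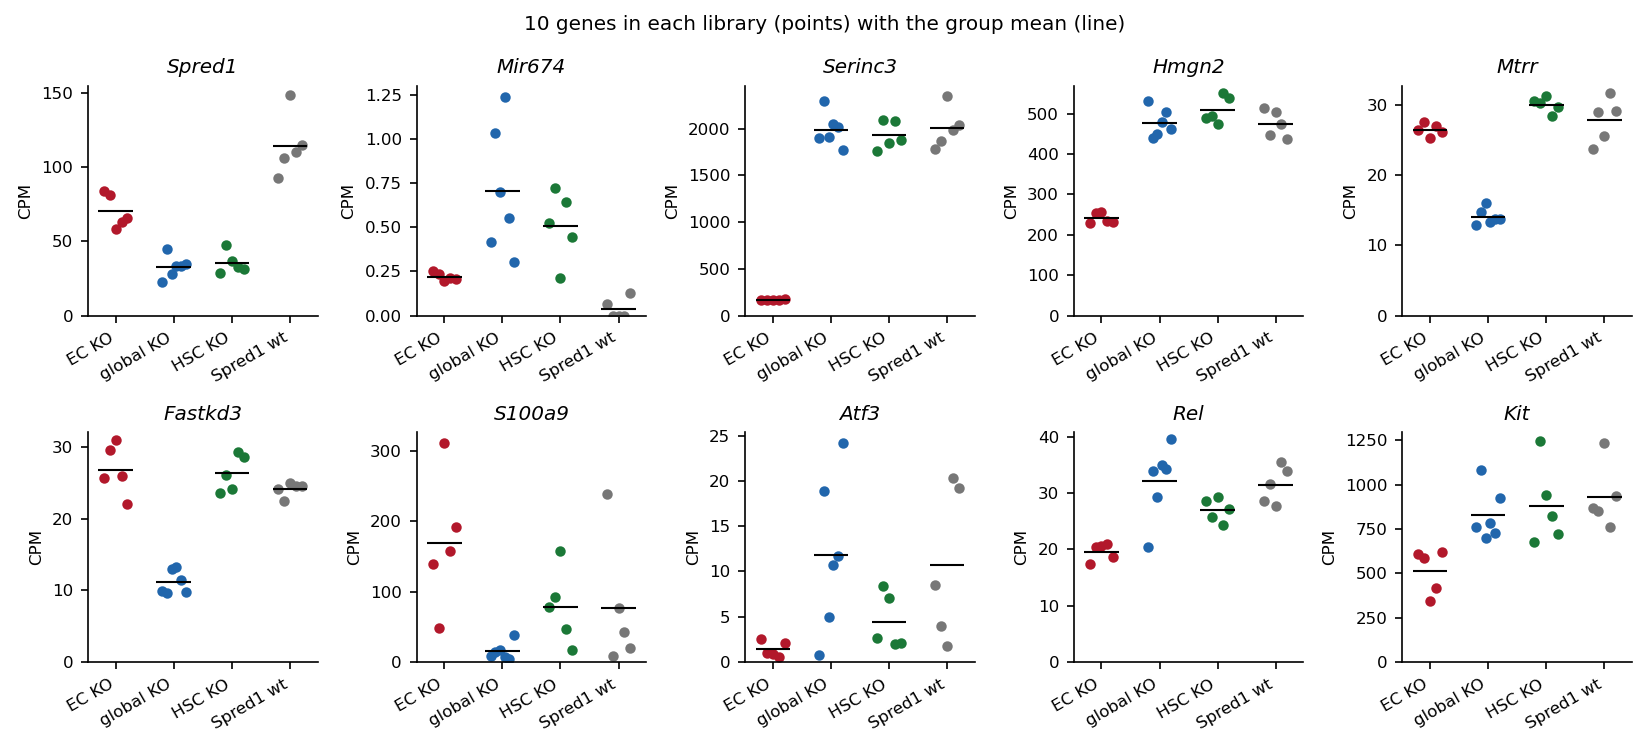
CPM of 10 genes in each library, with points for libraries and a line for the group mean (EC KO n = 5, global KO n = 6, HSC KO n = 5, Spred1 wt n = 5); every axis starts at 0. Serinc3 and Hmgn2 are low in EC KO alone, Mtrr and Fastkd3 are low in global KO alone, and Spred1 is lowest in global KO and HSC KO.

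Across the 13379 genes tested, 1160 differed between EC KO and global KO at an edgeR quasi-likelihood adjusted p under 0.05, 8.67% of the total. Of these, 462 were higher in EC KO (3.45%) and 698 were lower (5.22%). Most differences were small, with a median size of 0.36 on the log2 scale among the called genes. Beyond a log2 change of 1 there were 80 higher and 76 lower genes, and the median over all tested genes was 0.01. The same EC KO libraries differed from Spred1 wt at 1065 genes (7.96%), 467 higher (3.49%) and 598 lower (4.47%). Global KO differed from Spred1 wt at 10 genes (0.0747%), 3 higher (0.0224%) and 7 lower (0.0523%). The difference between the 2 effects against Spred1 wt is the EC KO against global KO contrast itself. The count was 548 without EC KO replicate 3 and 2061 without EC KO replicate 5. In the Y-positive libraries it was 791, of which 604 were among the 1160, and with sex as a covariate it was 699. With upper-quartile scaling the split became 600 higher and 641 lower.

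**Figure D2:**
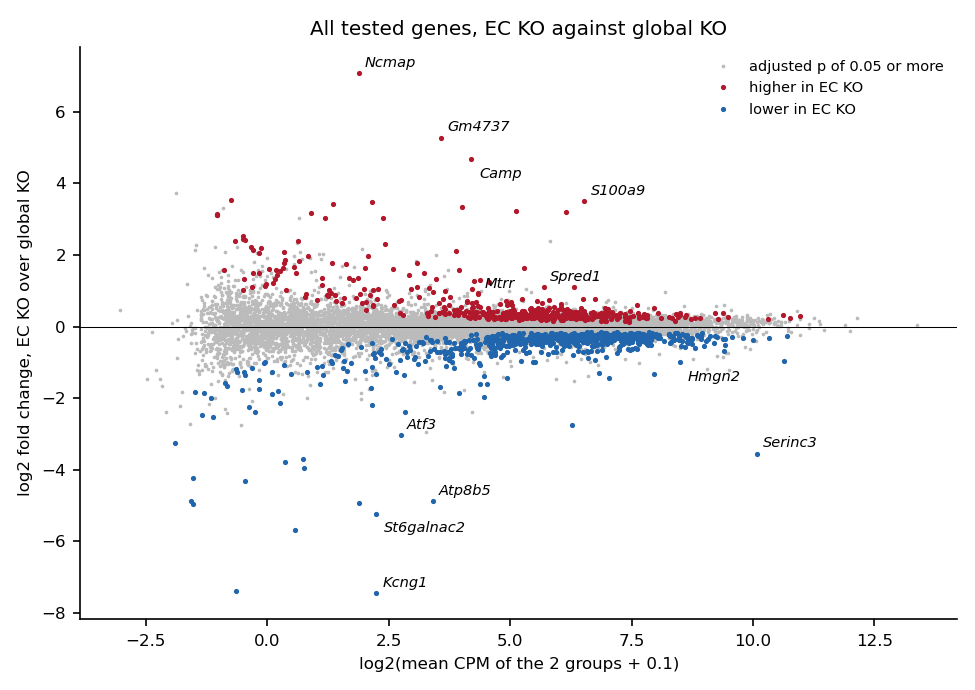
Each point is one of the tested genes, at the log2 of its mean CPM in the 2 groups plus 0.1 (horizontal) and its log2 fold change of EC KO over global KO (vertical); colored points have an edgeR adjusted p under 0.05. BC018473, at 0 counts in EC KO, and Xist are not drawn. Most colored points lie within 1 of zero, and a small set of genes, Ncmap, Serinc3 and Kcng1 among them, stands far outside.

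Among the genes of smallest p were single transcripts with tight and widely separated levels. Serinc3, a multipass membrane protein (chr2:163623273-163645143), held 171, 169, 168, 165 and 177 CPM in EC KO, and 1770.3 at the lowest, 1967 at the median and 2299 CPM at the highest in global KO. The EC KO libraries were nearly identical to each other and 11.7-fold below global KO (log2 fold change -3.55 ± 0.08, edgeR adjusted p = 1.38e-20). HSC KO and Spred1 wt lay with global KO, at 1767 to 2090.2 and 1786 to 2349 CPM. Its neighbor Pkig, an inhibitor of protein kinase A, stood at 12.2 to 14.8 CPM in EC KO and 22.1 to 35.1 CPM in global KO, also without overlap (log2 fold change -1.01 ± 0.11, edgeR adjusted p = 3.08e-06).

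Polr2k, a small subunit shared by the RNA polymerases, held 5.15, 5.55, 7.01, 5.52 and 4.54 CPM in EC KO and 15.2 at the lowest, 17.4 at the median and 20.8 CPM at the highest in global KO. No EC KO library reached the global KO range (log2 fold change -1.68 ± 0.10, edgeR adjusted p = 5.63e-11). Hmgn2, a nucleosome-binding protein, held 229, 255, 256, 234 and 232 CPM in EC KO and 440.2 at the lowest, 471 at the median and 531 CPM at the highest in global KO, again apart (log2 fold change -0.99 ± 0.06, edgeR adjusted p = 1.74e-10). Rplp0, a protein of the ribosomal stalk that is often taken as a reference gene, was at 937 to 1150.2 CPM in EC KO and 1869 to 2735 CPM in global KO (log2 fold change -0.97 ± 0.09, edgeR adjusted p = 1.23e-07).

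Higher in EC KO were Ncf4, the p40 subunit of the phagocyte NADPH oxidase, at 116, 108, 117, 108 and 94.8 CPM against 43.7 at the lowest, 50.7 at the median and 59.6 CPM at the highest in global KO. The ranges did not touch (log2 fold change 1.09 ± 0.08, edgeR adjusted p = 1.75e-09). Rida, which clears reactive imines formed in amino acid metabolism, was at 27.9 to 38.1 CPM in EC KO and 11.8 to 15.5 CPM in global KO (log2 fold change 1.25 ± 0.10, edgeR adjusted p = 5.12e-09). Ncmap, a membrane protein known from myelin, was at 5.69 to 8.76 CPM in EC KO and 0 to 0.121 CPM in global KO, so that it was close to absent in global KO. In the opposite sense, Snx31, a sorting nexin, had 0 to 0.161 CPM in EC KO and 1.62 to 3.45 CPM in global KO. Kcng1, a modifier subunit of voltage-gated potassium channels, had 0 to 0.146 CPM in EC KO and 2.39 to 14.5 CPM in global KO. Atp8b5, a phospholipid flippase, and Fzd6, a Wnt receptor, were also lower in every EC KO library. Atp8b5 was at 0.462 to 1.07 CPM in EC KO and 8.77 to 50.7 CPM in global KO (log2 fold change -4.88 ± 0.63, edgeR adjusted p = 4.03e-05), and Fzd6 at 4.28 to 9.91 CPM in EC KO and 17.3 to 32.1 CPM in global KO (log2 fold change -1.87 ± 0.21, edgeR adjusted p = 4.18e-06). For each of the genes named from Serinc3 to Fzd6, Spred1 wt lay with global KO: the edgeR adjusted p of EC KO against Spred1 wt was at most 0.000145, and that of global KO against Spred1 wt at least 0.837. Each of these calls between EC KO and global KO held in every refit without 1 library and in the Y-positive libraries. Besides Fzd6, the 50 genes of smallest p held other signaling genes, Csnk1e, Cbl and Spred1 itself, at log2 fold changes of -0.69, -0.56 and 1.11. Vps13b, Tnrc18 and Herc2 were among the 50 with smaller log2 fold changes, -0.44, -0.45 and -0.47.

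Many of the genes of smallest p lay near each other. Of the 50 genes of smallest p, 12 were on chromosome 4, 11 on chromosome 5, 10 on chromosome 15 and 7 on chromosome 2. These chromosomes held 843, 837, 516 and 1046 of the 13379 genes tested. By windows of 10 Mb (mm10), 12 of 38 tested genes passed at 30 to 40 Mb of chromosome 15 (31.6%), where Polr2k, Rida, Snx31, Fzd6 and the lipid transport gene Vps13b lie. At 160 to 170 Mb of chromosome 2, around Serinc3, Pkig and Kcng1, 19 of 79 passed (24.1%). At 130 to 140 Mb of chromosome 4, around Hmgn2 and Ncmap, 28 of 138 passed (20.3%), and at 110 to 120 Mb of chromosome 5, around Rplp0 and Oasl2, 19 of 95 passed (20%). Each share exceeds the 8.67% of all genes, and the windows were picked after the values were seen, so no test is attached to them. Other chromosomes had windows with shares as high. At 0 to 10 Mb of chromosome 9, 7 of 22 passed (31.8%), and at 30 to 40 Mb of chromosome 7, 16 of 70 (22.9%). Neither window held any of the 50 genes of smallest p. The EC KO mice are a line of their own, and the labels give no more of its background than C57BL/6, so for such genes the genetic background of the line and the deletion cannot be told apart.

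A few genes of this kind differed among the EC KO libraries themselves. Apobec3, a cytidine deaminase that restricts retroviruses, held 90.2, 225, 211, 92.8 and 89.9 CPM in EC KO, while global KO held 325 at the lowest, 359 at the median and 369.7 CPM at the highest. EC KO replicates 2 and 3 stood above the other 3, and all 5 stood below global KO (log2 fold change -1.32 ± 0.18, edgeR adjusted p = 6.96e-05). Il11ra1, the interleukin-11 receptor, held 5.86, 6.87, 21, 7.67 and 9.66 CPM in EC KO and 26.7 at the lowest, 31.1 at the median and 37.4 CPM at the highest in global KO, with EC KO replicate 3 the highest of its group (log2 fold change -1.62 ± 0.21, edgeR adjusted p = 3.04e-05). Gm4737 held 53.4, 29.6, 31.3, 1.02 and 0.546 CPM in EC KO and 0.484 to 0.727 CPM in global KO, so EC KO replicates 1, 2 and 3 carried the rise and replicate 5 lay within the global KO range (log2 fold change 5.27 ± 0.74, edgeR adjusted p = 8.39e-05). Srd5a1, a steroid 5-alpha-reductase, held 16.2, 25.2, 15.2, 7.29 and 15.2 CPM in EC KO and 4.33 to 7.99 CPM in global KO, where EC KO replicate 4 lay inside the global KO range (log2 fold change 1.33 ± 0.20, edgeR adjusted p = 0.00016). Kif21a, a kinesin, was at 5.21 to 9.41 CPM in EC KO and 1.0 to 2.54 CPM in global KO, and the unnamed gene 5830444B04Rik at 6.28 to 10.3 CPM in EC KO and 0.0556 to 1.30 CPM in global KO (edgeR adjusted p = 4.54e-05 and 2.34e-05), both without overlap.

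Other differences came from the global KO side. Mtrr, the reductase that keeps methionine synthase active, held 26.4, 27.6, 25.2, 27.0 and 26.2 CPM in EC KO and 12.9 at the lowest, 13.7 at the median and 16.1 CPM at the highest in global KO. The EC KO libraries lay within the Spred1 wt range of 23.8 to 31.8 CPM, and global KO lay below it (log2 fold change 0.91 ± 0.07, edgeR adjusted p = 2.21e-09). Fastkd3, a mitochondrial RNA-binding protein, held 25.7, 29.6, 30.9, 25.9 and 22 CPM in EC KO and 9.63 at the lowest, 10.7 at the median and 13.3 CPM at the highest in global KO, with Spred1 wt at 22.5 to 25 CPM (log2 fold change 1.26 ± 0.10, edgeR adjusted p = 8.95e-09). The pair is divergent on chromosome 13, and its shared start region is shown because both genes moved together. In RefSeq (GRCm38.p6) the starts are 41 bases apart, and the interval chr13:68582169-68582210 is given on the plus strand, with the first base of Mtrr (left, transcribed from the other strand) and of Fastkd3 (right) in capitals.
Mtrr to Fastkd3: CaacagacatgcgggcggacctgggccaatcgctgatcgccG
Neither gene differed between EC KO and Spred1 wt (edgeR adjusted p = 0.556 and 0.389), while both did between global KO and Spred1 wt (2.23e-09 and 3.71e-07). The labels do not name the global allele, so for this pair the genetic background of the global KO mice and the deletion cannot be told apart.

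St6galnac2, a sialyltransferase, and BC018473 lie close to each other on chromosome 11 and were read mainly in 5 of the 6 global KO libraries. St6galnac2 held 0, 0.0471, 0.438, 0.322 and 0.378 CPM in EC KO, and 0, 10.5 and 13.1 CPM as the lowest, median and highest of global KO. Global KO replicate 2, at 0, lay below 4 of the 5 EC KO libraries, and the other 5 global KO libraries lay above all of them (log2 fold change -5.23 ± 0.79, edgeR adjusted p = 0.000177). BC018473 had 0 counts in each EC KO library and 8287 counts in global KO, again none of them in replicate 2. Against a floor of 3 counts over the group, EC KO was at least 2766-fold lower (edgeR adjusted p = 0.00275). Neither gene passed in limma-voom, and without any one of global KO replicates 1, 3, 4, 5 or 6 both were filtered out and not tested. BC018473 was also at 0 in every HSC KO and Spred1 wt library. For St6galnac2 and BC018473, too, the background of the global KO mice and the deletion cannot be told apart. Kcnip3, a potassium channel interacting protein, was at 0.292 to 1.18 CPM in EC KO and 0.647 to 1.45 CPM in global KO, at 0.461 to 0.799 CPM in HSC KO and at 1.41 to 15.1 CPM in Spred1 wt, where 1 library lay within the global KO range. The HSC wt libraries, with Spred1 intact, were as low, at 0.540 to 1.32 CPM. EC KO and global KO did not differ in it at the threshold (log2 fold change -0.59 ± 0.41, edgeR adjusted p = 0.4).

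The genes of the mature neutrophil had the largest median change and the largest share called among the gene lists. Of 12 listed genes, 6 were higher in EC KO than in global KO at an adjusted p under 0.05 (50%, against 3.45% of all genes), none was lower, and 11 had a positive fold change. Their median log2 fold change was 2.80, against 0.01 for all genes. S100a9, which with S100a8 forms the calcium-binding protein calprotectin, held 139, 48.8, 310.4, 158 and 192 CPM in EC KO and 4.0 at the lowest, 11.6 at the median and 39.0 CPM at the highest in global KO. All EC KO libraries exceeded all global KO libraries, with EC KO replicate 2 the lowest of its group (log2 fold change 3.51 ± 0.77, edgeR adjusted p = 0.00657). S100a8 behaved likewise, at 42.4 to 218 CPM in EC KO and 6.39 to 29.8 CPM in global KO (log2 fold change 3.21 ± 0.67, edgeR adjusted p = 0.00449). Camp, the cathelicidin antimicrobial peptide of secondary granules, held 19.8, 3.53, 50.3, 29.5 and 71.7 CPM in EC KO and 0.0556 at the lowest, 0.540 at the median and 5.31 CPM at the highest in global KO, where replicate 6 reached above EC KO replicate 2 (log2 fold change 4.67 ± 1.05, edgeR adjusted p = 0.008). Ltf, the granule protein lactoferrin, was at 8.66 to 48.5 CPM in EC KO and 0.445 to 11.3 CPM in global KO, and its call was lost without EC KO replicate 3 or global KO replicate 4 (edgeR adjusted p = 0.0227 with all libraries and at most 0.0566 without one).

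Chil3, a chitinase-like lectin, was at 10.5 to 96.2 CPM in EC KO and 3.275 to 10.6 CPM in global KO (log2 fold change 3.24 ± 0.66, edgeR adjusted p = 0.00395). The siderophore-binding protein Lcn2 was at 28.1 to 91.8 CPM in EC KO and 9.12 to 34.8 CPM in global KO, with a call that was lost without EC KO replicate 3 (adjusted p 0.0504). Outside the list but among the largest rises, Cd177, a neutrophil surface antigen, Wfdc21, and Fcnb, a ficolin of early neutrophils, were higher in every EC KO library than in any global KO library, with log2 fold changes of 3.03, 2.32 and 2.11 (edgeR adjusted p = 0.00411, 0.000428 and 0.0198). The Fcnb call was lost in the Y-positive libraries. Ngp and Ly6g, 2 other markers of the maturing neutrophil, did not pass (log2 fold changes 2.38 and 3.74, edgeR adjusted p = 0.111 and 0.0658), and Ly6g stayed under 1 CPM in all 11 libraries. The summed level of the 12 genes was 243 to 978 CPM in EC KO and 66.7 to 215 CPM in global KO, without overlap. The EC KO values lay within the spread of the Spred1 wt libraries, 74.6 to 895 CPM, apart from replicate 3. No member passed between EC KO and Spred1 wt (median 0.56) or between global KO and Spred1 wt (median -2.0). In the Y-positive libraries 6 members passed, with gene length removed 6, and with 1 library left out 4 (without EC KO replicate 3) to 8. A few neutrophils within the gate and neutrophil transcripts within LSK cells cannot be told apart.

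Granulocyte genes of an earlier stage moved less. In the primary granule list all 8 tested genes had a positive fold change (median 0.53), but Cebpe alone passed (12.5%, against 3.45% of all genes higher). This transcription factor, needed for secondary granule formation, held 27.6, 20.8, 31.8, 16.3 and 27.0 CPM in EC KO and 8.49 at the lowest, 12.6 at the median and 14.7 CPM at the highest in global KO, without overlap (log2 fold change 1.04 ± 0.25, edgeR adjusted p = 0.0106), and it did not pass in the Y-positive libraries. Mpo and Elane, the enzymes of primary granules and by far the more abundant transcripts, overlapped, at 3962 to 5633 and 552 to 881 CPM in EC KO and 2486 to 6074 and 339.6 to 714 CPM in global KO (edgeR adjusted p = 0.603 and 0.228).

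The 250 bases before the RefSeq start (GRCm38.p6) of the 6 listed neutrophil genes that passed and of Cd177, Wfdc21 and Fcnb were searched on both strands for TTGCNNAA, one form of the site that C/EBP factors bind. The set consists of neutrophil genes picked for their change, so the share of matches is no test of that change. Of these 9 genes, 8 had a window and 4 held a match (S100a9, Ltf, Lcn2 and Fcnb), against 9.564% of the 32851 windows in the table. The windows of S100a9 and Fcnb are printed on the gene's strand, with the matches in capitals.
S100a9, chr3:90695722-90695971, minus strand: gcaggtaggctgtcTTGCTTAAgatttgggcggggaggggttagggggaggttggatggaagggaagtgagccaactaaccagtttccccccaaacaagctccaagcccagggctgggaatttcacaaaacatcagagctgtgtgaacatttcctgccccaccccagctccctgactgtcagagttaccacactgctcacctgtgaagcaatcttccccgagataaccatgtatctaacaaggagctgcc
Fcnb, chr2:28084879-28085128, minus strand: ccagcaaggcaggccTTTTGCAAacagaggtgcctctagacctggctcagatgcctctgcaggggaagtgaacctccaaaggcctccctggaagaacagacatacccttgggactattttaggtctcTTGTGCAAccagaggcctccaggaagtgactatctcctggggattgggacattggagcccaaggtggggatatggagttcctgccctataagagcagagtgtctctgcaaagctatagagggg

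**Figure D3:**
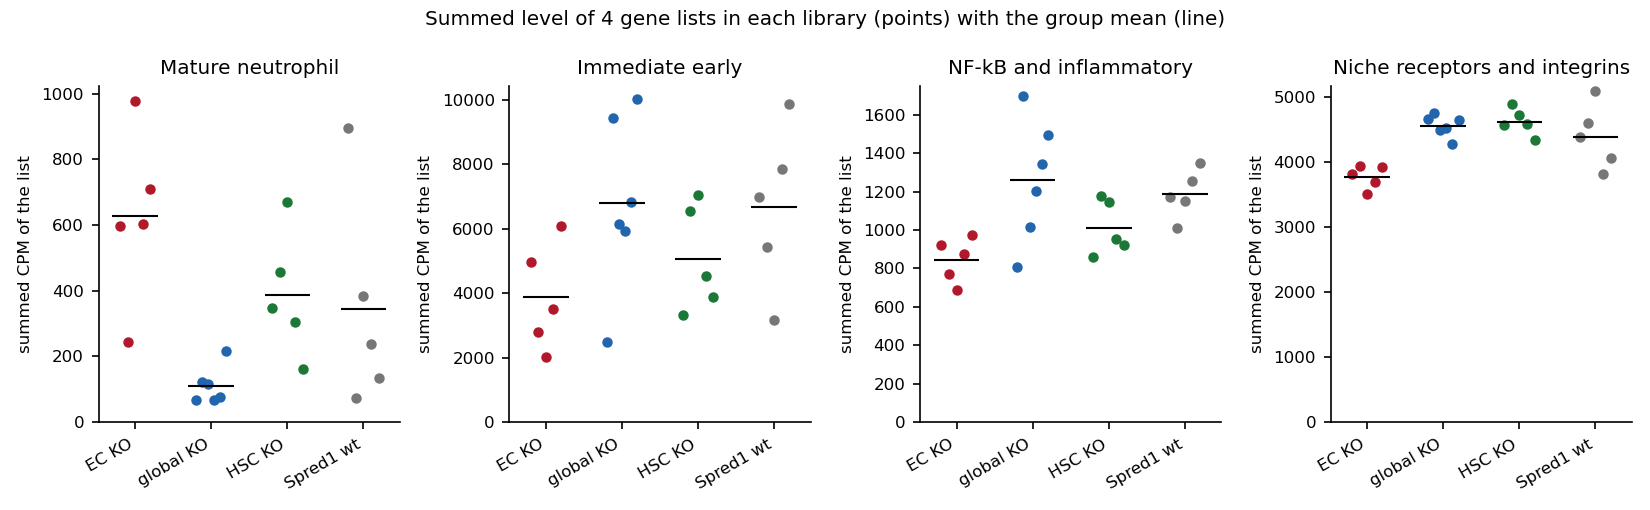
Summed CPM of 4 gene lists in each library (points) with the group mean (line), for EC KO (n = 5), global KO (n = 6), HSC KO (n = 5) and Spred1 wt (n = 5). Neutrophil genes are low in all global KO libraries, and the immediate early and NF-kB lists are low in global KO replicate 1 as in EC KO.

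Genes of the immediate early response, which ERK and stress kinases switch on within minutes, had negative fold changes in EC KO. All 21 listed genes had a negative fold change, with a median of -0.78, and 3 passed (14.3%, against 5.22% of all genes lower): Atf3, Egr3 and Ier3. Atf3, a stress-induced transcription factor, held 2.55, 1.04, 0.876, 0.590 and 2.10 CPM in EC KO and 0.831 at the lowest, 11.2 at the median and 24.2 CPM at the highest in global KO. Global KO replicate 1 lay among the EC KO libraries, and the other 5 lay above them (log2 fold change -3.02 ± 0.74, edgeR adjusted p = 0.0131); the call was lost in the Y-positive libraries, with sex as a covariate and in limma-voom. Egr3, a zinc finger factor of the same response, held 2.59, 3.29, 0.778, 1.88 and 2.69 CPM in EC KO and 3.17 at the lowest, 11.8 at the median and 27.4 CPM at the highest in global KO, with EC KO replicate 2 above the 2 lowest global KO libraries (log2 fold change -2.39 ± 0.55, edgeR adjusted p = 0.00877). Ier3, an immediate early inhibitor of cell death, was at 56.2 to 99.4 CPM in EC KO and 69.1 to 174 CPM in global KO (log2 fold change -0.68 ± 0.21, edgeR adjusted p = 0.0443). Its call was lost in 8 of the 11 refits that left out 1 library, and held without EC KO replicate 5 and without global KO replicates 1 or 3. It was also lost in the Y-positive libraries and with sex as a covariate. The most abundant members, Egr1 and Fos, did not pass, at 137 to 585 and 242 to 619 CPM in EC KO, against 190.2 to 1273 and 343 to 1037 CPM in global KO (edgeR adjusted p = 0.0917 and 0.14). Summed over the list, the EC KO libraries held 2012 to 6083 CPM. Global KO replicate 1 held 2483 CPM and the other 5 held 5936 to 10019.8 CPM. Without that library 10 members passed, without global KO replicate 2 there were 2, and in the Y-positive libraries 1. These transcripts are also known to respond to handling and dissociation of cells, which no value here measures.

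The NF-kB genes gave a similar picture. Of 18 genes of the NF-kB and inflammatory list, 4 were lower in EC KO (Rel, Nfkb2, Rela and Nfkbiz; 22.2%, against 5.22% of all genes), none was higher, and the median was -0.46. Rel, the c-Rel subunit, held 17.4, 20.4, 20.6, 20.9 and 18.7 CPM in EC KO and 20.5 at the lowest, 34.0 at the median and 39.6 CPM at the highest in global KO. Only global KO replicate 1 entered the EC KO range (log2 fold change -0.71 ± 0.11, edgeR adjusted p = 0.000211). Nfkb2, which encodes p100 and p52, was at 25.2 to 36.7 CPM in EC KO and 37.6 to 55.7 CPM in global KO, without overlap (log2 fold change -0.46 ± 0.11, edgeR adjusted p = 0.00945). Nfkbiz, an inducible coactivator of NF-kB, was at 29.97 to 108 CPM in EC KO and 35.0 to 319 CPM in global KO, and Rela, the p65 subunit, at 69.7 to 82.7 CPM in EC KO and 78.3 to 97.5 CPM in global KO (edgeR adjusted p = 0.0436 and 0.0382). Their calls were lost in 9 and 7 of the 11 refits without 1 library, and both in the Y-positive libraries, where 2 members of the list passed. Without global KO replicate 1 there were 9, and without global KO replicate 2 or EC KO replicate 3 there were 2. Cxcl10, a chemokine that NF-kB and interferon induce, was at 0.438 to 2.04 CPM in EC KO and 1.51 to 12.7 CPM in global KO (log2 fold change -2.20 ± 0.62, edgeR adjusted p = 0.0286), with a call that was lost in 6 of the 11 refits (each without 1 of EC KO replicates 1 to 4 or global KO replicates 2 and 6) and in the Y-positive libraries.

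The κB site was searched in the same promoter windows as above. Of 5 genes (Rel, Nfkb2, Rela, Nfkbiz and Cxcl10), which were picked for their change, 4 had a window and 3 held a match, all but Rela, against 3.899% of all windows. The first 4 genes come from the NF-kB list, and Cxcl10 is a gene that NF-kB induces, so the share of matches is no test of the change. Nfkb2 had 3 windows, whereas the share of all windows counts each window singly. The windows of Rel and Cxcl10 are shown on the gene's strand, with the matches in capitals; in Rel 2 overlapping matches form one run.
Rel, chr11:23770970-23771219, minus strand: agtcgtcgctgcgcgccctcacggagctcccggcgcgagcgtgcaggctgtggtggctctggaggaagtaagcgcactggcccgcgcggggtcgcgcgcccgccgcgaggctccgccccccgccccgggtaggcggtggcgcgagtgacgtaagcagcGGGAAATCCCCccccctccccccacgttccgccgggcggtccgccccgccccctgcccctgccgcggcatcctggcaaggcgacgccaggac
Cxcl10, chr5:92348890-92349139, minus strand: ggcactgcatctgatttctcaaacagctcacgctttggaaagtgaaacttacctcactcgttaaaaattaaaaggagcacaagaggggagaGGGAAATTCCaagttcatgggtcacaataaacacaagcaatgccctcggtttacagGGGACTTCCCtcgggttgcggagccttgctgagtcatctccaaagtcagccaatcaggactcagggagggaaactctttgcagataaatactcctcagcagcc
Searches in 4 immediate early and ERK output genes that passed (Atf3, Egr3, Ier3 and Dusp5) gave fewer matches. Of the 3 with a window, Dusp5 alone held the CArG box, the site of serum response factor, against 1.467% of all windows. None of the 3 held TGACGTCA, the full cAMP response element, against 1.546% of all windows. These 4 motif searches were the ones made.

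Changes in transcripts that ERK can induce were mixed in size, and the activity of ERK itself was not measured. Of 18 tested ERK output genes, 3 were lower in EC KO (Dusp5, Ier3 and Spry1), where 5.22% of all genes were lower. Spred1, the targeted gene, is on the list and was higher. With it, 22.2% were called in either direction, against 8.67% of all genes. The median of the list was -0.29. Dusp5, a nuclear phosphatase that ERK induces and that inactivates ERK, held 9.33, 7.29, 8.12, 9.49 and 11.4 CPM in EC KO and 10.4 at the lowest, 17.3 at the median and 28.6 CPM at the highest in global KO. The 2 lowest global KO libraries overlapped the EC KO range (log2 fold change -0.94 ± 0.21, edgeR adjusted p = 0.00653), and the call was lost in the Y-positive libraries and in a fit of the 2 groups alone. Spry1, a Sprouty inhibitor, was at 4.96 to 10.5 CPM in EC KO and 10.5 to 14.4 CPM in global KO, where the groups met without crossing (log2 fold change -0.67 ± 0.19, edgeR adjusted p = 0.0295), and the call was lost in 6 of the 11 refits and with sex as a covariate. Dusp6 and Spry2, 2 further ERK feedback genes, did not pass (log2 fold changes -0.36 and -0.18, edgeR adjusted p = 0.151 and 0.478). Without EC KO replicate 3 the list had 1 lower member and without global KO replicate 1 it had 5. Ccnd1, cyclin D1, was at 48.9 to 86.0 CPM in EC KO and 63.7 to 109 CPM in global KO and did not pass between EC KO and global KO (log2 fold change -0.46 ± 0.17, edgeR adjusted p = 0.0857). Against Spred1 wt, at 30.1 to 54.7 CPM, EC KO did not pass (edgeR adjusted p = 0.0554) and global KO did (0.00738).

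Among 13 tested genes of the Spred and Sprouty family and their partners, 3 were lower in EC KO, Spry1 and Nf1 among them. Of all genes, 5.22% were lower. With Spred1, the targeted gene, which was higher, 30.8% were called, against 8.67% of all genes. Nf1, the partner that SPRED1 recruits, was at 47.0 to 58.5 CPM in EC KO and 53.9 to 73.2 CPM in global KO (log2 fold change -0.27 ± 0.08, edgeR adjusted p = 0.0314). Without EC KO replicate 3 none of the 3 passed, and the Nf1 call was also lost once gene length was removed and in a fit of the 2 groups alone. Among 22 RAS to MAPK components, Ksr1, an ERK pathway scaffold, was lower (log2 fold change -0.39, edgeR adjusted p = 0.0154; 0.0575 without EC KO replicate 3, and lost with sex as a covariate) and Nras was higher by 0.16 on the log2 scale (0.0396), a call that was lost in 9 of the 11 refits and in the Y-positive libraries. The share called was 9.09%, against 8.67% of all genes.

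Several receptors that tie LSK cells to their niche were lower in EC KO. Of 21 tested niche receptors and integrins, 6 were lower (28.6%, against 5.22% of all genes) and none was higher. Their summed level was 3507 to 3937 CPM in EC KO and 4272 to 4753 CPM in global KO, without overlap. Kit, the receptor for stem cell factor and part of the sorting gate, held 607, 587, 344, 419 and 622 CPM in EC KO and 701 at the lowest, 771 at the median and 1080.2 CPM at the highest in global KO. Every EC KO library lay below every global KO library (log2 fold change -0.68 ± 0.17, edgeR adjusted p = 0.0138; 0.0519 with sex as a covariate). Tgfbr2, the TGF-beta receptor, held 68.1, 62.5, 59.7, 68.1 and 82.9 CPM in EC KO and 90.3 at the lowest, 97.7 at the median and 119 CPM at the highest in global KO, also apart (log2 fold change -0.56 ± 0.12, edgeR adjusted p = 0.00407). Itgal, the alpha chain of the integrin LFA-1, was at 162 to 181 CPM in EC KO and 197 to 270.0 CPM in global KO (log2 fold change -0.41 ± 0.08, edgeR adjusted p = 0.00192). Itga4, whose integrin binds VCAM1 on endothelium, was at 283 to 399.9 CPM in EC KO and 454 to 607 CPM in global KO (log2 fold change -0.60 ± 0.15, edgeR adjusted p = 0.0126). Notch2 and the BMP receptor Bmpr2 were lower by smaller steps (log2 fold changes -0.41 and -0.38, edgeR adjusted p = 0.00744 and 0.0164). The transcripts of Kit, Tgfbr2, Itgal, Itga4, Notch2 and Bmpr2 are 4.78 to 12.9 kb long in the deposited table, against a median of 3.27 kb, and with gene length removed the calls of Kit, Tgfbr2 and Itgal were left. Without EC KO replicate 3 there were also 3, with adjusted p of 0.0557 for Kit, 0.0535 for Itga4 and 0.0693 for Bmpr2. In the Y-positive libraries Itga4, Notch2 and Bmpr2 lost their calls, and 5 members of the whole list passed.

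None of 20 tested haematopoietic stem cell genes and none of 9 HOX and MEIS self-renewal genes passed, with medians of -0.21 and -0.07. With the mast cell list as a covariate 8 of the 20 and 1 of the 9 were lower, where 1340 of all 13379 genes were. In the LSK identity list of 10 genes, Kit and Runx1 were lower (20%, against 5.22% of all genes). Runx1, a master regulator of blood formation, was at 164 to 196 CPM in EC KO and 191 to 244 CPM in global KO (log2 fold change -0.30 ± 0.08, edgeR adjusted p = 0.0222). Its call was lost without EC KO replicates 1, 2 or 3 or global KO replicate 3, in the Y-positive libraries, with sex as a covariate, in a fit of the 2 groups alone and with gene length removed. Cd34 was at 709.96 to 767 CPM in EC KO and 810.2 to 963 CPM in global KO, without overlap but short of the threshold (log2 fold change -0.26 ± 0.11, edgeR adjusted p = 0.141). Ly6a, which encodes the gate marker Sca-1, was at 50.3 to 67.9 CPM in EC KO and 42.2 to 65.8 CPM in global KO (log2 fold change 0.02 ± 0.18, edgeR adjusted p = 0.96). Cd93, a surface protein reported on CML stem cells, held 292, 289, 248, 291 and 363 CPM in EC KO and 365 at the lowest, 442 at the median and 485 CPM at the highest in global KO. It was lower in all EC KO libraries (log2 fold change -0.55 ± 0.13, edgeR adjusted p = 0.00823) and the one member of 10 CML stem cell surface genes that passed (10%, against 5.22% of all genes lower). Vwf and Prdm16 did not pass (8.74 to 20.3 CPM in EC KO and 12.7 to 56.0 CPM in global KO for Vwf, edgeR adjusted p = 0.0575, and 0.0962 for Prdm16). None of 11 lymphoid priming genes passed, but with the mast cell list as a covariate 8 were lower.

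Of 20 PI3K, AKT and mTOR genes 5 were lower in EC KO (Mtor, Foxo3, Tsc2, Pik3cg and Rptor; 25%, against 5.22% of all genes) and none was higher, with a median of -0.13. Foxo3, a transcription factor that AKT restrains, held 49.7, 50.9, 40.3, 47.6 and 60.8 CPM in EC KO and 64.7 at the lowest, 72.7 at the median and 84.2 CPM at the highest in global KO, without overlap (log2 fold change -0.56 ± 0.11, edgeR adjusted p = 0.00292). The kinase Mtor was at 81.5 to 104 CPM in EC KO and 106 to 125 CPM in global KO and its inhibitor Tsc2 at 76.6 to 89.9 CPM in EC KO and 91.0 to 111 CPM in global KO (edgeR adjusted p = 0.00187 and 0.0156). With gene length removed 1 member passed, and 2 without EC KO replicate 3. Stat5b was the one lower gene of 12 in the STAT5 list (8.33%, against 5.22% of all genes). It was at 147 to 187 CPM in EC KO and 193 to 216 CPM in global KO (log2 fold change -0.31 ± 0.07, edgeR adjusted p = 0.00914), though not called in the Y-positive libraries. Bbc3, the p53-induced death protein PUMA, was also lower (log2 fold change -0.71 ± 0.19, edgeR adjusted p = 0.023). It was the one lower gene of 15 in the BCL2 family (6.67%) and of 18 p53 targets (5.56%), both near the 5.22% of all genes. Its adjusted p was up to 0.0884 without EC KO replicates 2 or 3 or global KO replicate 6, and the call was lost in the Y-positive libraries, with sex as a covariate and in a fit of the 2 groups alone. Ago2, the slicer of microRNA complexes, was at 124 to 200.1 CPM in EC KO and 179 to 314 CPM in global KO (log2 fold change -0.59 ± 0.15, edgeR adjusted p = 0.0156). With Mir674 it made the lower pair among 12 genes of microRNA processing (16.7%, against 5.22% of all genes). The call was lost without EC KO replicates 3 or 4 and with gene length removed.

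A few cell cycle and respiratory chain genes were higher in EC KO. Of 20 S phase genes Slbp, the histone mRNA binding protein, and Tyms, thymidylate synthase, were higher in EC KO, 10% against 3.45% of all genes (log2 fold changes 0.32 and 0.26, edgeR adjusted p = 0.00231 and 0.0228). Of 21 G2 and M phase genes (4.76%) Ccna2, cyclin A2, was higher, at 201 to 271 CPM in EC KO and 171 to 211 CPM in global KO (log2 fold change 0.34, edgeR adjusted p = 0.0268). Tyms and Ccna2 lost their call in 3 and 4 of the 11 refits, in the Y-positive libraries, with sex as a covariate and in a fit of the 2 groups alone. All 23 oxidative phosphorylation genes had a positive fold change, with a median of 0.18, and 2 were called higher, both subunits of complex I. These are 8.7% of the list, against 3.45% of all genes higher and 8.67% called in either direction. The list has a median length of 0.993 kb, and all genes under 1 kb had a median log2 fold change of 0.16. Ndufb3 was at 41.9 to 61.8 CPM in EC KO and 32.4 to 40.9 CPM in global KO (log2 fold change 0.43 ± 0.10, edgeR adjusted p = 0.00693). Ndufs1 was at 112 to 159 CPM in EC KO and 104 to 129 CPM in global KO (log2 fold change 0.28 ± 0.08, edgeR adjusted p = 0.0357), with a call that was lost in 5 of the 11 refits, in the Y-positive libraries, with sex as a covariate and in a fit of the 2 groups alone. None of 16 glycolysis, 16 ATF4 stress, 16 ER chaperone or 13 D-cyclin and CDK inhibitor genes passed. With the mast cell list as a covariate 2 glycolysis and 4 ATF4 stress genes were higher, where 1137 of all 13379 genes were.

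Of 28 tested interferon-stimulated genes, 20 had a negative fold change. Only 1 passed, as lower in EC KO (3.57%, against 5.22% of all genes lower). It was Oasl2, an antiviral protein of the oligoadenylate synthase family, at 3.39, 3.58, 6.62, 13.1 and 18 CPM in EC KO and 21.6 at the lowest, 35.3 at the median and 47.4 CPM at the highest in global KO. EC KO was lower throughout (log2 fold change -1.96 ± 0.43, edgeR adjusted p = 0.00599), and Oasl2 lies in the chromosome 5 window described above. The median of the list was -0.10. With the mast cell list as a covariate 13 members were lower, where 1340 of all 13379 genes were. None of 13 MHC class I and 10 MHC class II genes passed, and with that covariate 2 of each were lower.

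Markers of other cells were examined over whole lists. Mast cell and basophil markers summed to 2059.8 to 5675 CPM in EC KO and 1699 to 14910.2 CPM in global KO. Mcpt4, a mast cell chymase, was the one lower gene of 13, at 33.7, 58.7, 3.75, 1.77 and 1.01 CPM in EC KO and 53.4 at the lowest, 124 at the median and 239.7 CPM at the highest in global KO. EC KO lay lower except for an overlap of replicate 2 with the lowest global KO library (log2 fold change -2.76 ± 0.85, edgeR adjusted p = 0.0453), and the call was lost in 8 of the 11 refits and with sex as a covariate. A related protease outside the list, Mcpt1, was lower in every EC KO library, at 0 to 0.837 CPM in EC KO and 1.09 to 22.1 CPM in global KO (log2 fold change -4.92 ± 1.10, edgeR adjusted p = 0.00706). Cma1 overlapped (5.84 to 856 CPM in EC KO and 99.1 to 2176 CPM in global KO). The overlap came from EC KO replicates 1 and 2, the libraries with Xist, and in the Y-positive libraries Cma1 was lower in EC KO (log2 fold change -5.87, edgeR adjusted p = 0.0104). In those libraries 5 of the 13 mast cell and basophil genes were lower, where 546 of all 13733 genes were. With all libraries 1 of the 13 was lower (7.69%, against 5.22% of all genes). Endothelial markers summed to 345 to 581 CPM in EC KO and 442 to 647 CPM in global KO. Cdh5, the VE-cadherin that defines endothelium, was at 0.209 to 2.09 CPM in EC KO and 0.181 to 1.09 CPM in global KO. Pecam1, which blood progenitors also express, was the one lower gene of 17 (5.88%, against 5.22% of all genes), with a log2 fold change of -0.29 ± 0.08 (edgeR adjusted p = 0.0267). Its call was lost without EC KO replicates 1, 2 or 3 or global KO replicate 2, in the Y-positive libraries, with sex as a covariate and in a fit of the 2 groups alone. Of 6 tested T and NK cell genes Gzma, a granzyme, alone was higher (16.7%, against 3.45% of all genes). It was at 1.76 to 3.53 CPM in EC KO and 0 to 1.54 CPM in global KO (log2 fold change 1.96 ± 0.54, edgeR adjusted p = 0.0252). Its call was lost without EC KO replicates 2 or 3 or global KO replicates 3 or 5, in the Y-positive libraries and in a fit of the 2 groups alone. None of 14 macrophage, 13 erythroid, 11 megakaryocyte, 10 B and plasma cell, 9 dendritic or 7 stromal genes passed. With the mast cell list as a covariate 4 macrophage, 4 B and plasma cell, 2 dendritic and 1 megakaryocyte genes were lower, where 1340 of all 13379 genes were. The macrophage sum was 254 to 523 CPM in EC KO and 272 to 812 CPM in global KO, highest in global KO replicate 1, the library with low immediate early genes. The part of these cells in the results above was not tested, beyond refits with mast cell, macrophage or neutrophil levels as a covariate, which gave 2477, 1346 and 553 called genes.

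**Figure D4:**
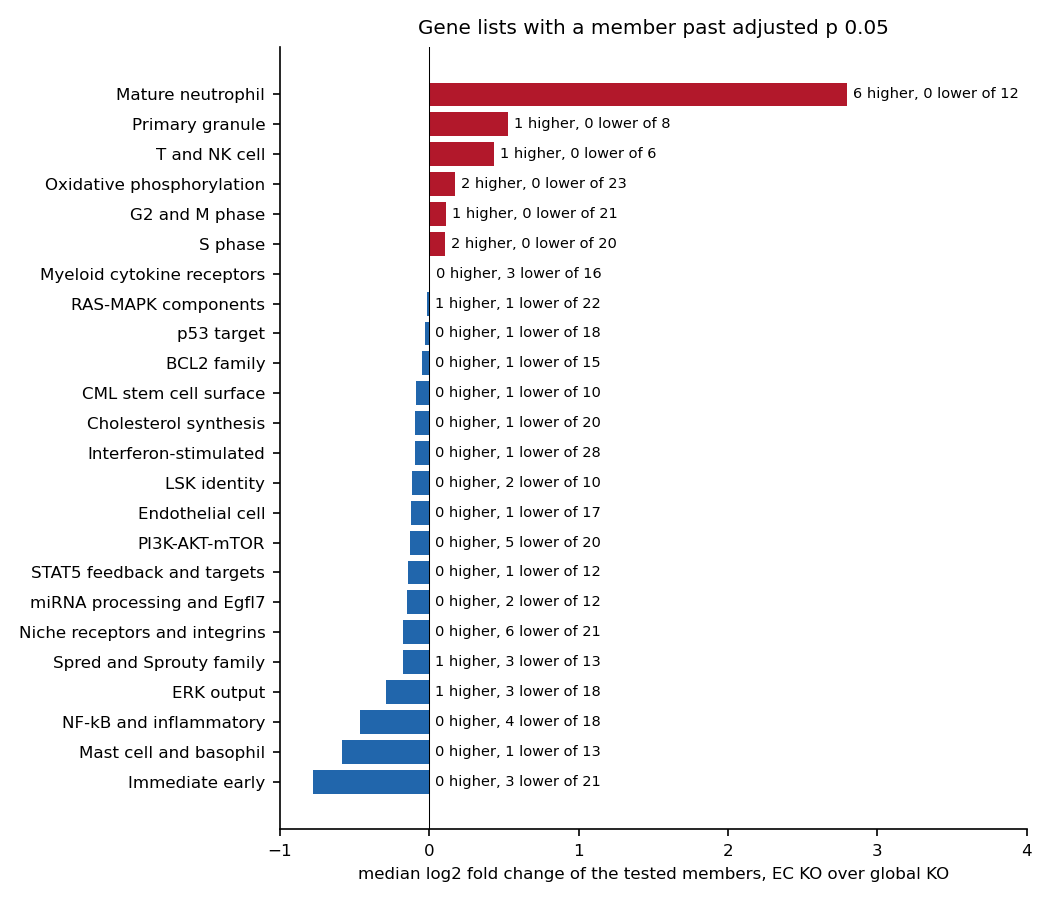
Median log2 fold change of EC KO over global KO for the tested members of each gene list that had a member past an edgeR adjusted p of 0.05 (bars), with the number of higher and lower members beside it. The mature neutrophil list stands at 2.80, all other medians lie between -0.78 and 0.53.

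The difference between the 2 knockouts followed gene length. Genes under 1 kb in the deposited table had a median log2 fold change of 0.16, with 62 of 929 higher in EC KO and 14 lower. Genes of 8 kb or more had a median of -0.16, with 10 of 1074 higher and 215 lower, and the medians fell in every step between. Called higher genes had a median length of 2.11 kb and called lower genes of 6.16 kb. Among the long genes of smallest p were Vps13b, at 144 to 161 CPM in EC KO and 193 to 219 CPM in global KO, Herc2, a ubiquitin ligase, at 155 to 175 CPM in EC KO and 217 to 241 CPM in global KO, and Tnrc18, at 181 to 211 CPM in EC KO and 253 to 281 CPM in global KO (edgeR adjusted p = 3.15e-06, 7.79e-06 and 4.18e-06). Their groups did not overlap. For EC KO against Spred1 wt, which shares the EC KO libraries, the shortest and longest genes had medians of 0.19 and -0.16. For global KO against Spred1 wt they had 0.03 and 0.01. Within single libraries, the median deviation of long genes minus that of short genes was -0.49 to -0.12 in EC KO and -0.28 to 0.20 in global KO, where replicate 1 was the lowest. With the length trend removed the count of called genes was 753, and 664 with GC content removed as well. RNA integrity values were not given with the libraries, and their part in the trend was not tested.

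**Figure D5:**
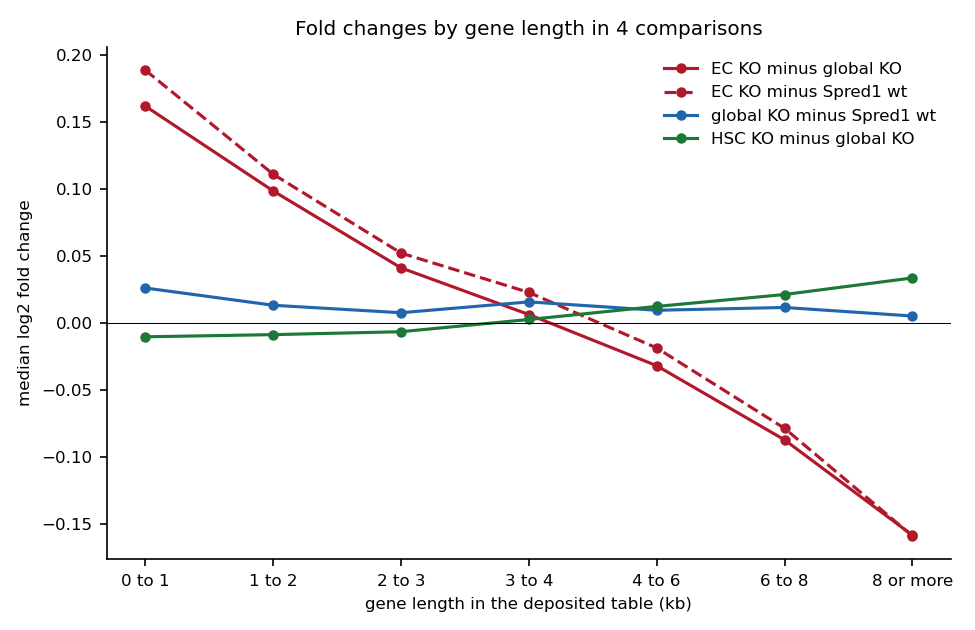
Median log2 fold change (vertical) of tested genes in 7 classes of gene length (horizontal, kb in the deposited table) for 4 comparisons. Both comparisons of EC KO fall from short to long genes, from 0.16 to -0.16 against global KO, while global KO against Spred1 wt and HSC KO against global KO stay near 0.

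HSC KO, in which Mx1-cre removes Spred1 from the LSK cells themselves, was set beside both. HSC KO differed from global KO at 9 genes (0.0673%), 4 higher (0.0299%) and 5 lower (0.0374%). Poly(I:C) is stated for the HSC groups, and not given for the others. EC KO differed from HSC KO at 1189 genes (8.89%), 425 higher (3.18%) and 764 lower (5.71%). Spred1 itself did not pass between HSC KO and global KO (log2 fold change 0.12 ± 0.15, edgeR adjusted p = 0.824). It was higher in EC KO than in HSC KO (log2 fold change 0.99 ± 0.15, edgeR adjusted p = 0.000164), a call that was lost in the Y-positive libraries. Mature neutrophil genes did not follow this split: their median was 2.11 for HSC KO over global KO and 0.36 for EC KO over HSC KO, with no member called in either. The immediate early genes were negative for HSC KO over global KO as well, all 21, with a median of -0.36 and none called. For EC KO over HSC KO 17 of them were negative, with a median of -0.24 and none called. Of 18 NF-kB list genes, 16 were negative for HSC KO over global KO (median -0.35, none called). For EC KO over HSC KO 11 were negative (median -0.13), and 1 was called lower (5.56%, against 5.71% of all genes). For the niche receptors, 5 of 21 were lower in EC KO than in HSC KO (23.8%, against 5.71% of all genes). None differed between HSC KO and global KO, where 0.0673% of all genes did. Long genes were often lower in EC KO than in HSC KO, 26.9% of those of 8 kb or more and 13.4% of those of 6 to 8 kb. Of genes of 4 to 6 kb 5.4% were lower. The niche list has a median length of 4.78 kb, and its members in this comparison were not counted with gene length removed. Mtrr and Fastkd3 were at 28.4 to 31.2 and 23.6 to 29.3 CPM in HSC KO, with EC KO and Spred1 wt rather than with global KO, and Serinc3 and Hmgn2 at 1767 to 2090.2 and 474 to 552 CPM, with global KO.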

How the data were processed

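Messenger RNA of sorted LSK cells was measured by RNA-seq in 26 libraries. The authors deposited raw read counts per gene with a length in kb for each gene; per the submitters' processing notes the genome build was mm10 and the named tools are edgeR 3.28.1, HTSeq 0.6.0, STAR 2.6.0 and bcl2fastq 2.18.0.12, and the annotation and strand setting are not given in the sources used here. Overlapping or antisense genes may therefore share reads. Of 24091 genes, 13379 passed filterByExpr (minimum count 10) and were tested with the edgeR quasi-likelihood test (edgeR 4.0.16, R 4.3.3, TMM scaling, robust), fitted on all 26 libraries in 5 groups, with 21 residual degrees of freedom and Benjamini-Hochberg adjustment over all genes at 0.05. CPM use TMM-scaled totals. A covariate, length or GC trend was added in alternatives, as were DESeq2 1.42.0 and limma-voom 3.58.1. Libraries with Xist above 500 CPM were taken as female and those with Y-linked genes above 20 CPM in sum as male. The code was tested on simulated counts.

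Totals of 16010404 to 24114819 counts in the EC KO and global KO libraries set the precision of low genes: 3 counts in one of them are 0.126 to 0.194 CPM. Values after ± are the SE of log2 fold changes, levels are given for single libraries or as ranges and medians, and floors cover counting error only. Samples were grouped by their labels, which give no batch.

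Named genes were Spred1, Egfl7, Mir674, Ccnd1, Mtrr, Fastkd3, Kcnip3, St6galnac2 and Serinc3, the 12 largest rises and the 12 largest falls with at least 5 CPM in the higher group, and the 3 members of smallest p in each list with a called member. Chosen after their values were seen were Pkig, Polr2k, Hmgn2, Rida, Ncf4, Snx31, Rplp0, Srd5a1, Apobec3, Il11ra1, Csnk1e, Cbl, Vps13b, Herc2, Tnrc18, Lcn2, Ngp, Ly6g, Mpo, Elane, Egr1, Fos, Nfkbiz, Nf1, Dusp6, Spry2, Ly6a, Itga4, Bmpr2, Cdh5, Cma1, Prdm16, Pik3cg and Rptor, with the windows, the length classes and the promoter searches. All gene lists and members were chosen with earlier results of these data known. Results on certain items are not reported here.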

Additional observations from a re-analysis of the deposited data

Results flagged for a closer look

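In a check of single libraries that stood apart from the rest of their group, 4 of 102 gene or list levels had such a library in EC KO and 9 of 103 in global KO. The share expected by chance was not computed, and the levels examined come from the same libraries. Global KO replicate 2 had Cma1 at 2176 CPM, with the next library at 353 CPM, a mast cell and basophil sum of 14910 CPM, with the next at 4568 CPM, Atp8b5 at 50.7 CPM, with the next at 18.8 CPM, and BC018473 at 0, with the next at 70.1 CPM. Global KO replicate 6 had Camp at 5.31 CPM, with the next library at 1.55 CPM, Ltf at 11.3 CPM, with the next at 2.26 CPM, and a mature neutrophil sum of 215 CPM, with the next at 121 CPM. Global KO replicate 1 had Rplp0 at 2735 CPM, with the next at 2140 CPM, and Tsc2 at 111 CPM, with the next at 97.9 CPM. In EC KO, replicate 1 had Mcpt1 at 0.837 CPM, with the next library at 0.107 CPM, replicate 3 had Cd34 at 710 CPM, with the next at 751 CPM, and Il11ra1 at 21 CPM, with the next at 9.66 CPM, and replicate 5 had Notch2 at 246 CPM, with the next at 197 CPM. The effects of EC KO and of global KO against Spred1 wt differed from each other at 1160 genes by the edgeR test of that difference, which is the same contrast as EC KO against global KO.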

How the results depend on the processing

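No paired analysis was possible because the labels give no replicate numbers that tie libraries of different groups to each other. The count of 1160 genes between EC KO and global KO was 507 with the 2 groups alone, 699 with sex as a covariate, 753 with gene length removed, 664 with length and GC removed, 553 with the neutrophil list as a covariate and 2477 with the mast cell list, and ranged from 548 to 2061 with 1 library left out. For EC KO against Spred1 wt (1065 genes) it was 333 with the 2 groups alone, 1824 in limma-voom, 636 with sex, 2607 with the mast cell list, 695 with length removed, and 483 to 1880 leaving 1 library out. For EC KO against HSC KO (1189) it was 1993 in limma-voom, 568 with length and 574 with length and GC removed, and 690 to 1391 leaving 1 out. For global KO against Spred1 wt (10) it was 35 with DESeq2, 4 with the 2 groups alone, 19 with the mast cell list, 4 without genes near Spred1, and 8 to 25 leaving 1 out. For HSC KO against global KO (9) it was 42 with DESeq2, 75 in limma-voom, 3 in Y-positive libraries, 25 with the mast cell list, and 5 to 17 leaving 1 out.

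Spred1 between EC KO and global KO kept its call under every setting, at log2 fold changes of 0.92 to 1.34. Between EC KO and HSC KO it was 0.57 and no longer called in Y-positive libraries, between EC KO and Spred1 wt -0.30 and no longer called with the mast cell list, and between HSC KO and global KO, where it was never called, -0.068 with the macrophage list and -0.012 to 0.22 leaving 1 library out. Signs turned for genes with no call: Egfl7 (0.011 in Y-positive libraries), Kcnip3 (0.11 with the neutrophil list), Cma1 (-1.77 to 0.31 leaving 1 out), Ngp (-0.999 with the neutrophil list) and Ly6a (-0.061 in Y-positive libraries, -0.088 with length and -0.094 with length and GC removed, -0.25 with the neutrophil list, and -0.048 to 0.064 leaving 1 out). Of called genes, Ltf turned to -0.054 with the neutrophil list, which contains it. The neutrophil covariate also ended the calls of all 6 neutrophil list members, Cd177, Wfdc21, Fcnb, Cebpe, Mir674, Mcpt1, Itgal, Nfkb2, Mtor and Ago2, among others. The causes of these changes were not tested. Library totals limit the precision of low genes, such as Mir674, at 0.195 to 1.24 CPM in EC KO and global KO.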
